A study of Mus musculus with 27 samples.

Results

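The genes described here are 41 genes of the cell cycle and of cell proliferation, read in mouse olfactory mucosa, the tissue at the back of the nasal cavity that holds the odor-sensing neurons. They were listed by function, as known regulators and parts of DNA replication and mitosis. The choice of genes uses no measured value, but the list was drawn up with earlier results of these data known. Of the 41, 40 had a probe on the array. Foxm1, a transcription factor of G2/M genes, had none in the annotation used and was not analysed here. The 40 stand among 16637 named genes and 29922 probes. Where a gene had several probes (11 of the 40), the probe with the highest mean was taken, a choice that does use measured values. The tissue came from female FVB mice that were 25 days old. In the occluded group, 1 nostril had been closed by cautery (unilateral naris occlusion), and the mucosa behind it was taken. In the open group, the mucosa behind the other nostril of the same animals was taken. The normal group came from other mice that received a sham cautery on the muzzle, and that the design text calls untreated. Each group had 3 biological replicates, and each replicate was read on 3 arrays, 27 arrays in all. The time between cautery and sampling, and whether a replicate pooled several animals, are not stated by the labels. The same numbers in the occluded and open groups were read as the same individual.

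The olfactory epithelium is one of the few nervous tissues that keeps making neurons after birth. Globose basal cells divide and give rise to immature and then mature neurons, while horizontal basal cells are a mostly quiescent reserve. In a dividing cell, D and E cyclins and E2F factors start S phase, the Mcm helicase and the sliding clamp Pcna carry out replication, and Cdk1 with cyclins A and B drives entry into mitosis, which Cdc20 and the ubiquitin ligase APC/C bring to an end. Transcripts of most of these genes come and go with the cycle, so their level in a tissue depends on how many of its cells are dividing. The question was whether the level of these genes followed odor deprivation. In whole mucosa, fewer dividing cells and less RNA per dividing cell cannot be told apart.

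All values below are log2 intensities after quantile normalization, averaged over the 3 arrays of a replicate, and all differences are on the log2 scale with their standard error (SE). Median intensity per array lay between 123 and 274 before normalization. The noise limit of an array, set from its values below 0, lay between 11.6 and 24.1 on the linear scale. Of the 40 genes, 36 lay above the noise limit on all 27 arrays and none was saturated. Bub1 lay below it on 17 arrays, Cenpf on 12, Cdk1 on 8 and Gmnn on 4. Omp, the defining marker of mature neurons, was saturated on 26 of 27 arrays. Basal cell markers were present in all groups. Neurog1, a factor of dividing neuronal precursors, lay between 9.42 and 10.53, and the horizontal basal cell keratin gene Krt14 between 13.45 and 14.14. One replicate stood apart. Normal replicate 2 had 13.33 for the cartilage collagen gene Col2a1, against 8.03 to 9.41 in the other 8, and 11.79 for the cartilage matrix gene Matn1, against 2.19 to 4.13. Comparisons with the normal group were also made without it.

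No proliferation gene differed between the occluded and the open side at an adjusted p of 0.05 in limma, in either direction (0 of 40). Over all probes 66 of 29922 passed (0.221%). Of these, 53 were higher (0.177%) and 13 lower (0.0434%) in occluded mucosa. Among the 40 genes the smallest adjusted p was 0.43. An unadjusted p under 0.05 was found for 2 of the 40, E2f1 and Cdk1, both higher on the occluded side, against 1852 of all probes (6.19%). The 40 differences had a median of -0.0708, with 13 above and 27 below 0, where all named genes had a median of 0.0079 and 48.5% below 0. The lowest difference was -0.50 (Bub1) and the highest 1.05 (Cdk1). The 95% interval of the difference stayed within a 2-fold change in either direction for 34 of the 40 genes (79.0% of all named genes), and within 1.5-fold for 18 (42.7%). The 6 genes with wider intervals were Bub1, Cdk1, Cenpf, Gmnn, Hmgb2 and Top2a. For these a change of over 2-fold was within the error.

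**Figure D1:**
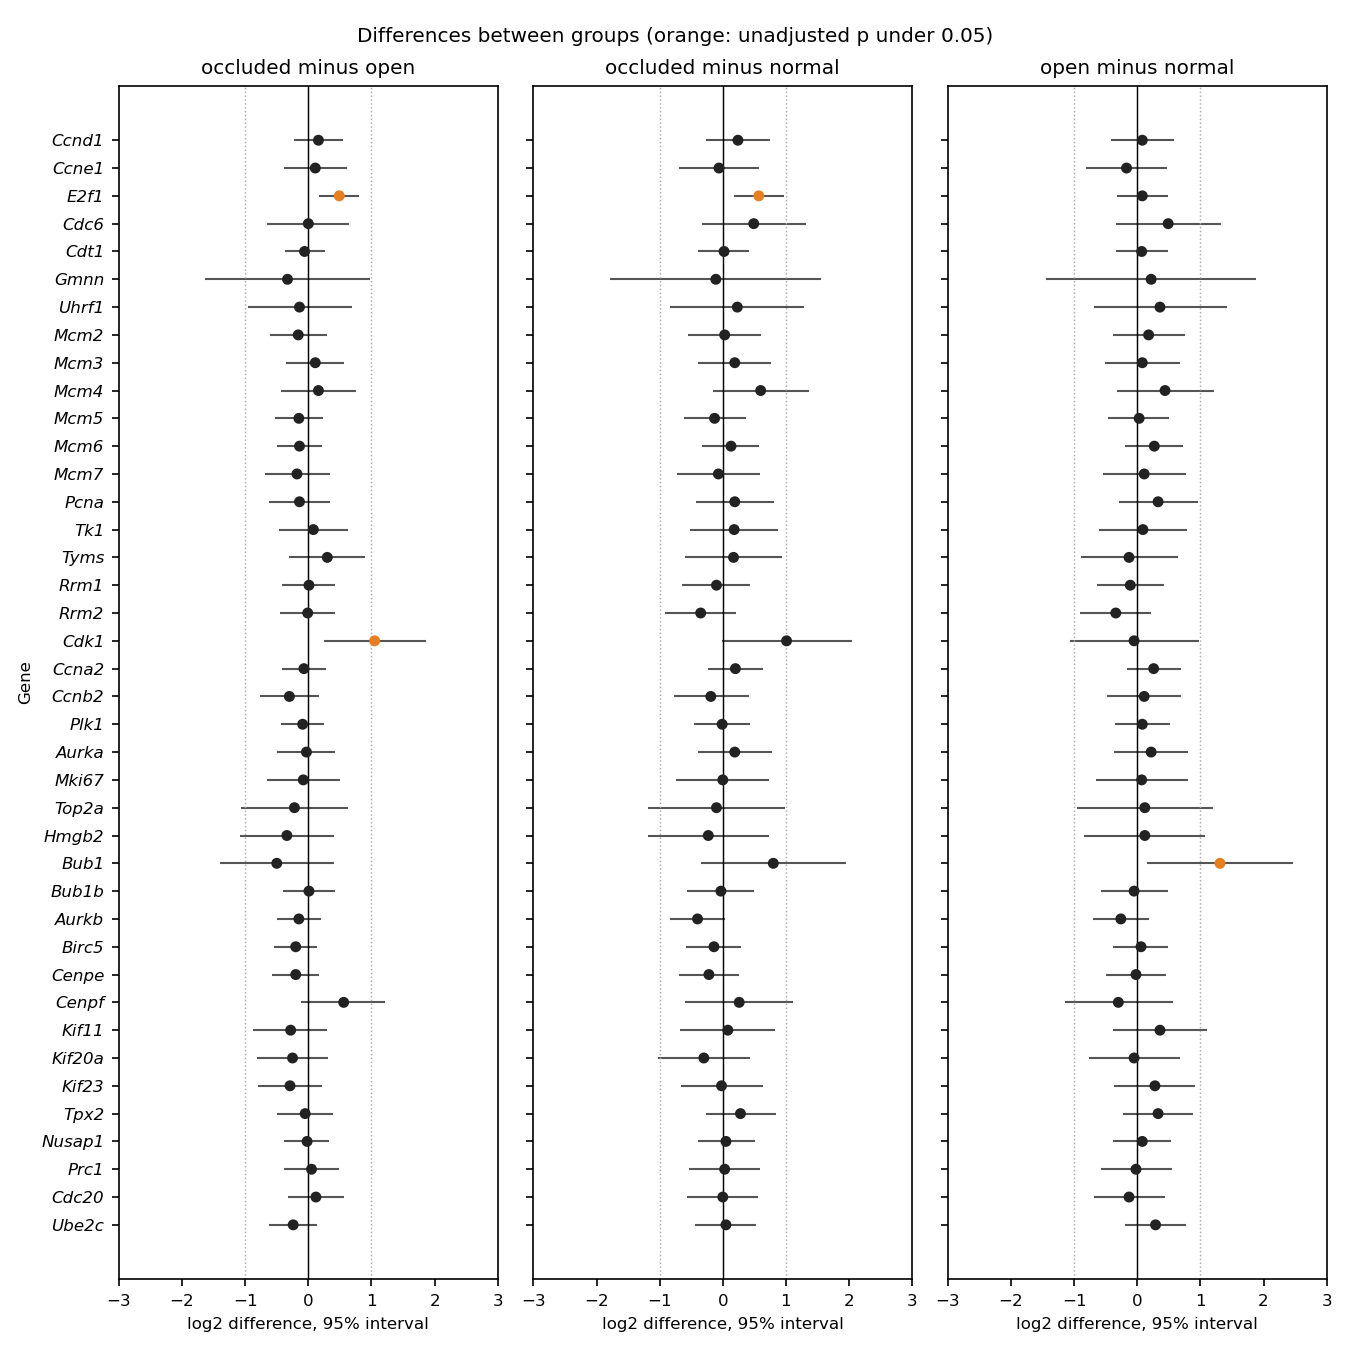
Log2 difference of each of the 40 proliferation genes in 3 comparisons (x axis, points with 95% intervals), ordered by role from G1/S control at the top to mitotic exit at the bottom. Dotted lines mark 2-fold. Most intervals cross 0 and stay between the dotted lines; the genes in orange (E2f1, Cdk1 and Bub1) have an unadjusted p under 0.05 and did not pass after adjustment.

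Against normal mucosa the result was likewise 0 of 40, on the occluded side (2 of all probes, 0.00668%) and on the open side (0 of all probes, 0.0%). In limma, with an unadjusted p under 0.05, these comparisons held 1 gene each, E2f1 for occluded against normal (861 of all probes, 2.88%) and Bub1 for open against normal (477 of all probes, 1.59%). The median difference of the 40 genes was 0.0284 for occluded against normal (22 above 0, 18 below, where 48.0% of all named genes lay below) and 0.0828 for open against normal (28 above, 12 below, where 51.1% lay below). Without normal replicate 2 these medians were 0.064 and 0.054, with 0 of 40 genes and 0 of all probes called. All named genes had medians of 0.0101 and -0.0038 in these comparisons. Intervals within 2-fold were found for 30 genes in each, against 70.2% and 71.9% of all named genes. The 3 comparisons share samples pair by pair, so their values are not independent of each other.

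The genes of G1/S control set the start of DNA replication. E2f1, a transcription factor that switches on S phase genes, had 10.19, 10.09 and 10.18 on the occluded side, against 9.77, 9.56 and 9.66 on the open side and 9.70, 9.70 and 9.34 in normal mucosa. All 3 occluded values lay above all 6 others. Its mean was 10.15 ± 0.05 in occluded, 9.66 ± 0.10 in open and 9.58 ± 0.21 in normal mucosa (SD, n = 3 each). The difference from the open side was 0.49 ± 0.14 (limma adjusted p = 0.43), a 1.40-fold higher level, with 0.41, 0.52 and 0.52 in the 3 pairs. From normal mucosa it was 0.57 ± 0.18 (limma adjusted p = 1.0). Over the alternative settings the difference from the open side stayed between 0.45 and 0.53, with adjusted p from 0.13 upward, so it did not pass in any. E2f1 is read by a single probe, and no second probe was there to compare.

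Ccnd1 encodes cyclin D1, which couples growth signals to the cycle. It had 12.91, 12.32 and 12.27 on the occluded side, 12.39, 12.15 and 12.48 on the open side and 12.21, 12.24 and 12.32 in normal mucosa. Occluded replicate 1 was the highest and the groups overlapped (0.16 ± 0.17). A further probe of Ccnd1 with a mean of 11.77 differed by -0.53 ± 0.39, and those with means of 11.01 and 11.02 by 0.04 and 0.14, so its probes did not have 1 sign. Among the other genes of this role, Ccne1 (cyclin E1) differed by 0.11, the origin licensing genes Cdc6 and Cdt1 by -0.00 and -0.06, the licensing inhibitor Gmnn by -0.33 ± 0.57 and Uhrf1, which directs maintenance methylation of new DNA, by -0.14 ± 0.36.

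The Mcm2 to Mcm7 proteins form the replicative helicase. Mcm2 had 9.12, 8.44 and 8.32 in occluded, 8.97, 8.58 and 8.80 in open and 8.74, 8.30 and 8.75 in normal mucosa. Mcm5 had 8.94, 8.81 and 8.73 in occluded, 9.09, 8.70 and 9.15 in open and 9.06, 8.65 and 9.15 in normal mucosa. Mcm6 had 9.36, 9.28 and 9.25 in occluded, 9.37, 9.29 and 9.65 in open and 8.98, 9.07 and 9.47 in normal mucosa. For each of these the groups overlapped, and the differences of occluded from open were -0.16 ± 0.20, -0.15 ± 0.17 and -0.14 ± 0.16. Mcm3, Mcm4 and Mcm7 differed by 0.11, 0.16 and -0.18. Mcm4 lay higher in all 3 occluded replicates (6.43, 7.03 and 6.70) than in normal mucosa (6.40, 6.42 and 5.53), by 0.60 ± 0.33 (limma adjusted p = 1.0). Pcna, the clamp that holds DNA polymerase on its template, was among the brightest of the 40 genes. It had 12.68, 12.91 and 13.17 in occluded, 13.00, 13.31 and 12.89 in open and 12.51, 13.25 and 12.43 in normal mucosa. Its difference from the open side was -0.14 ± 0.21, within the spread of its replicates.

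Nucleotide synthesis supplies the building blocks of new DNA. Tyms (thymidylate synthase) had 8.85, 7.73 and 8.07 in occluded, 8.49, 7.41 and 7.86 in open and 8.43, 8.03 and 7.68 in normal mucosa. It lay higher on the occluded side in all 3 pairs, by 0.36, 0.32 and 0.21, and the groups overlapped (0.30 ± 0.26, limma adjusted p = 0.99). With the pair as a fixed block the adjusted p was 0.92. Its dimmer probe differed by 0.03. Tk1 (thymidine kinase 1) had 9.70, 9.03 and 8.71 in occluded, 9.48, 8.85 and 8.85 in open and 9.31, 8.53 and 9.07 in normal mucosa, a difference of 0.08 ± 0.24 between the sides. The ribonucleotide reductase genes Rrm1 and Rrm2 differed by 0.01 and -0.01.

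Among genes of mitotic entry, Cdk1, the kinase that starts mitosis, had the largest difference of the 40 genes between the sides. It had 6.05, 4.52 and 4.36 on the occluded side, against 3.93, 3.75 and 4.08 on the open side and 3.66, 3.90 and 4.34 in normal mucosa. The occluded values lay above all others, with replicate 1 far above the rest. The difference from the open side was 1.05 ± 0.35 (limma adjusted p = 0.58), and 2.12, 0.77 and 0.27 in the 3 pairs. Without replicate 1 it was 0.52, and 0.45 when 50 was added to each intensity before taking logs. The probe is dim. It lay below the noise limit on 2 of 9 occluded, 2 of 9 open and 4 of 9 normal arrays, and 1 occluded array of replicate 3 read 1.97 where another of that replicate read 6.28. The cyclin partners of Cdk1 lay on the other side of 0. Ccna2 (cyclin A2) had 10.08, 9.88 and 9.96 in occluded, 9.99, 9.96 and 10.16 in open and 9.89, 9.96 and 9.47 in normal mucosa (-0.07 ± 0.15 between the sides). Ccnb2 (cyclin B2) had 7.12, 7.63 and 7.41 in occluded, 7.30, 7.96 and 7.80 in open and 7.12, 7.76 and 7.84 in normal mucosa. Ccnb2 lay lower on the occluded side in all 3 pairs (-0.30 ± 0.20, limma adjusted p = 0.96), with groups that overlapped. The mitotic kinase genes Plk1 and Aurka differed by -0.09 and -0.03.

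Mki67, which encodes the proliferation antigen Ki-67, had 6.91, 7.19 and 7.18 in occluded, 6.71, 6.92 and 7.87 in open and 6.71, 7.34 and 7.25 in normal mucosa. Its means were 7.09 ± 0.16, 7.17 ± 0.62 and 7.10 ± 0.34 in occluded, open and normal mucosa (SD, n = 3 each), and it differed by -0.08 ± 0.25 between the sides (95% interval -0.65 to 0.50). Its further probe above noise differed by -0.41 ± 0.34, and a probe below the noise limit on 22 of 27 arrays by 1.09 ± 0.33. Top2a, the topoisomerase that untangles replicated chromosomes, had 6.87, 7.56 and 7.13 in occluded, 6.41, 7.41 and 8.40 in open and 6.87, 7.50 and 7.48 in normal mucosa. For both genes open replicate 3 was the highest of all 9 and open replicate 1 the lowest or level with the lowest. Hmgb2, a chromatin protein of dividing cells, had 5.41, 6.32 and 6.46 in occluded, 5.80, 7.08 and 6.35 in open and 6.57, 6.72 and 5.58 in normal mucosa (-0.34 ± 0.33 between the sides).

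**Figure D2:**
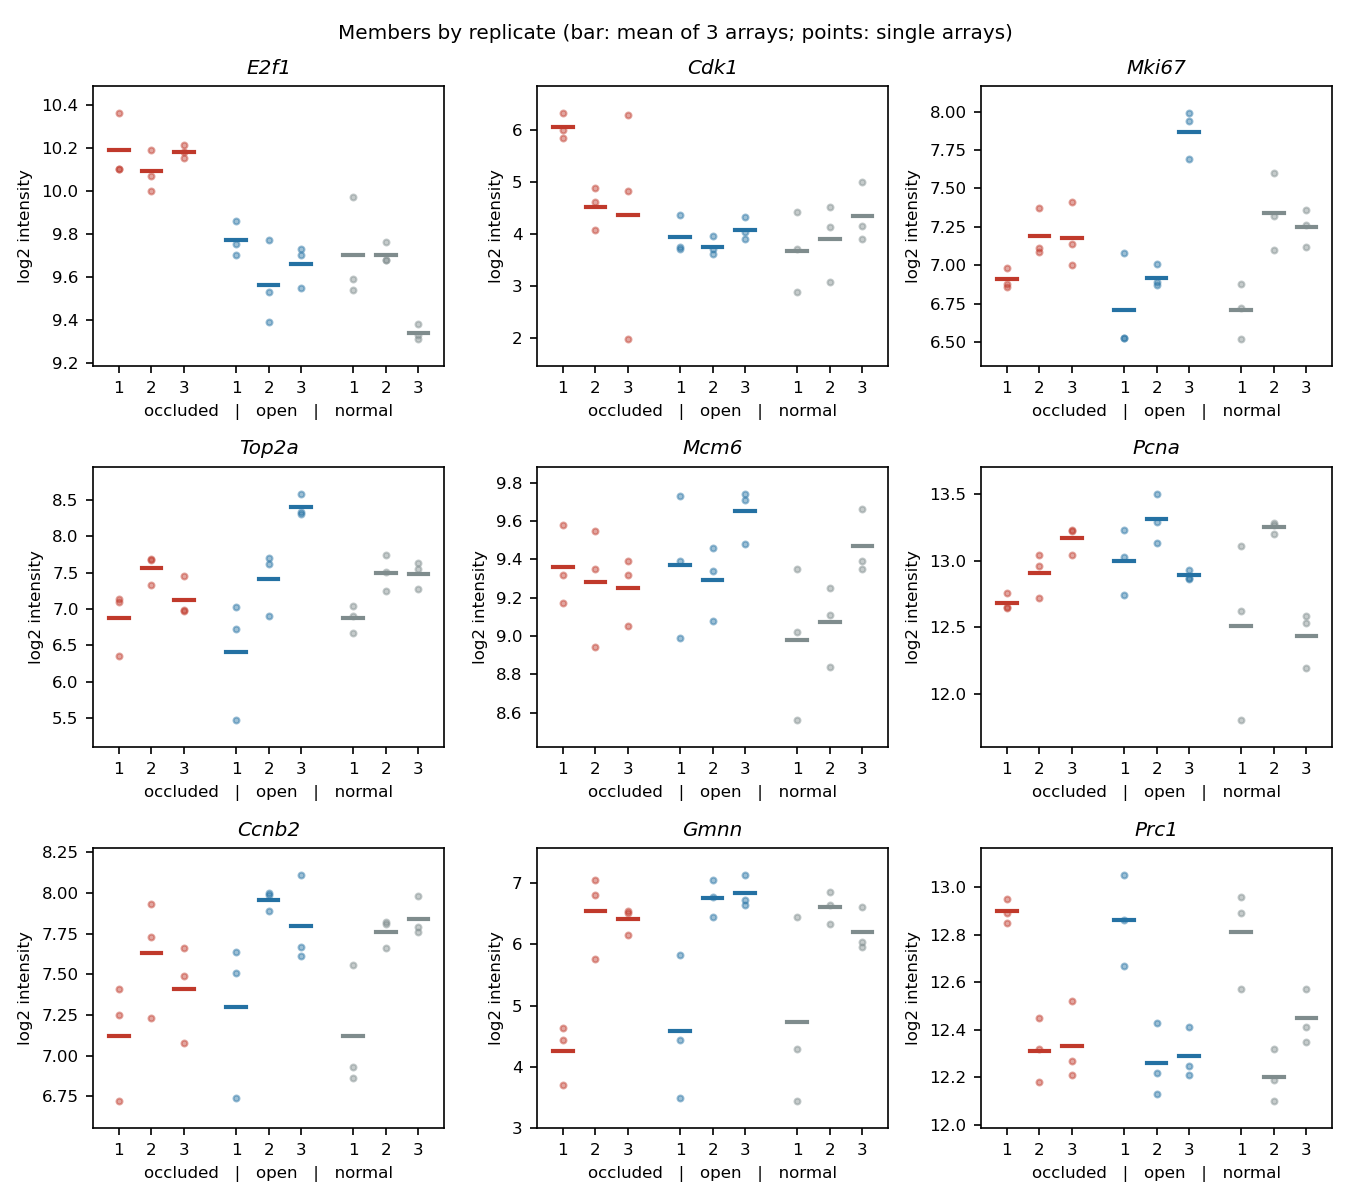
Log2 intensity (y axis) of 9 proliferation genes in the replicates of occluded, open and normal mucosa (x axis); points are single arrays and bars the mean of the 3 arrays of a replicate. E2f1 is higher in all 3 occluded replicates, Mki67 and Top2a are highest in open replicate 3, and Gmnn and Prc1 separate replicate 1 from 2 and 3 in every group.

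Genes of the kinetochore and the spindle checkpoint, which attach chromosomes to the spindle and hold mitosis until all are attached, gave no call. Birc5 (survivin) had 10.62, 10.30 and 10.21 in occluded, 10.69, 10.58 and 10.45 in open and 10.65, 10.27 and 10.64 in normal mucosa (-0.20 ± 0.15 between the sides). Its further probes differed by -0.06 and 0.14. Cenpf had 3.41, 4.08 and 4.17 in occluded, 3.05, 2.79 and 4.15 in open and 3.82, 3.76 and 3.30 in normal mucosa. Its difference of 0.56 ± 0.29 rests on values at the noise limit, below which it lay on 3 of 9 occluded, 5 of 9 open and 4 of 9 normal arrays. Bub1, a checkpoint kinase, had 2.69, 4.35 and 4.30 in open and 1.80, 3.32 and 2.30 in normal mucosa, 1.31 ± 0.51 apart (limma adjusted p = 1.0). It lay below the noise limit on 4 of 9 open and 7 of 9 normal arrays. Its partner Bub1b, bright on every array, differed by -0.05 in that comparison and by 0.01 between the sides. Aurkb, the kinase that corrects attachments, lay lower in all occluded replicates (6.79, 6.71 and 7.03) than in normal mucosa (7.28, 7.18 and 7.27), by -0.40 ± 0.19 (limma adjusted p = 1.0). Cenpe, a kinetochore motor, differed by -0.20 ± 0.16 between the sides, and its dimmer probe by -0.57 ± 0.22.

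Spindle motors and cytokinesis genes lay on the lower side of 0 in 5 of 6 cases. Kif11 had 5.27, 6.22 and 6.08 in occluded, 6.38, 5.98 and 6.05 in open and 5.56, 6.13 and 5.63 in normal mucosa. Kif23 had 7.60, 8.29 and 8.31 in occluded, 8.28, 8.15 and 8.65 in open and 7.67, 8.36 and 8.22 in normal mucosa. For both, most of the difference (-0.28 ± 0.26 and -0.29 ± 0.22) came from pair 1, at -1.11 and -0.68. Kif20a, Tpx2 and Nusap1 differed by -0.25, -0.05 and -0.02, and Prc1, which bundles microtubules of the central spindle, by 0.05. Mitotic exit is represented by the APC/C activator Cdc20 and the ubiquitin-conjugating enzyme Ube2c. Cdc20 had 11.66, 10.80 and 11.01 in occluded, 11.33, 11.00 and 10.76 in open and 11.05, 11.28 and 11.14 in normal mucosa (0.12 ± 0.19 between the sides). Its further probes differed by -0.26 ± 0.24 and 0.09, so they did not have 1 sign. Ube2c had 11.58, 11.52 and 11.67 in occluded, 11.71, 12.07 and 11.71 in open and 11.59, 11.80 and 11.24 in normal mucosa. All 3 occluded values of Ube2c lay below all 3 open ones, with a difference of -0.24 ± 0.17 (limma adjusted p = 0.96).

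In all, the occluded and open values did not overlap for E2f1 and Cdk1 (higher) and Ube2c (lower), 3 of 40 genes against 6.88% of all named genes. Occluded and normal values did not overlap for E2f1, Cdk1 and Mcm4 (higher) and Aurkb (lower), 4 of 40 against 6.85%. For open against normal there were 0 of 40, against 3.95%. In the pairs of the 2 sides, 5 genes lay higher on the occluded side in all 3 pairs (12.5% against 14.8% of all named genes) and 7 lay lower in all 3 (17.5% against 12.7%).

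The pairs did not go the same way. The median of the 40 pair differences was 0.07 in pair 1, 0.05 in pair 2 and -0.21 in pair 3, where all named genes had 0.03, 0.02 and -0.0. In pair 3, 28 of the 40 genes lay lower on the occluded side, against 14 in pair 1 and 18 in pair 2. Of all named genes, 50.2% lay lower in pair 3, 46.4% in pair 1 and 47.2% in pair 2. The pairs rest on reading equal numbers as 1 individual, which the values do not settle. All 6 Mcm genes lay lower in pair 3, by values from -0.37 to -0.48. In pair 1 the same genes ranged from -0.15 (Mcm5) to 0.59 (Mcm3). Top2a differed by 0.46, 0.16 and -1.27 in the 3 pairs, Uhrf1 by 0.57, 0.02 and -1.0, Mki67 by 0.19, 0.27 and -0.69 and Cdc6 by 0.32, 0.35 and -0.67. For each of these genes open replicate 3 was the highest of the 9 values, as it was for 12 of the 40 genes in all (16.1% of all named genes). It was not alone in this, as occluded replicate 1 was the highest for 11 (21.5%) and open replicate 2 for 7 (6.81%). Normal replicate 2 was the lowest for 10 (13.7%). Markers of blood cells went both ways in open replicate 3. Of 9 measured lymphocyte markers, 6 were at their lowest or second lowest there, among them 3 at their lowest (Cd79a, Cd3e and Cd2). A further 2 (Ptprc and Cd79b) were at their highest. The median of these markers, each gene taken minus its mean over the 9 values, was -0.32 there. In the other replicates it lay between -0.16 and 0.20. The granulocyte gene Ltf was highest there, at 15.99 against 13.22 to 15.11, with 3 arrays saturated. Ezh2, a gene of the globose basal cell and neuronal precursor list, had 6.74 there against 4.08 to 5.67. The median of that list, taken in the same way, was 0.14 there and was highest in open replicate 2, at 0.41. Mpo, the marker of myeloid precursors, had 10.39 in open replicate 3, within a range of 9.63 to 11.26. Over the list of myeloid precursor and erythroid markers, 11 of 15 were measured, with Epb42 below the noise limit on all arrays. Their summed intensity lay between 29453 and 53781 in occluded, 31648 and 100464 in open and 24554 and 62441 in normal mucosa. The sum weighs bright genes such as Ltf most. The list's median, taken as for the lymphocyte markers, was 0.19 in open replicate 3. It was 0.45 in occluded replicate 1 and 0.32 in normal replicate 2. The part of these blood cell markers in the result was not tested. Without replicate 3 the median difference between the sides was 0.003, and without replicate 1 it was -0.136.

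**Figure D3:**
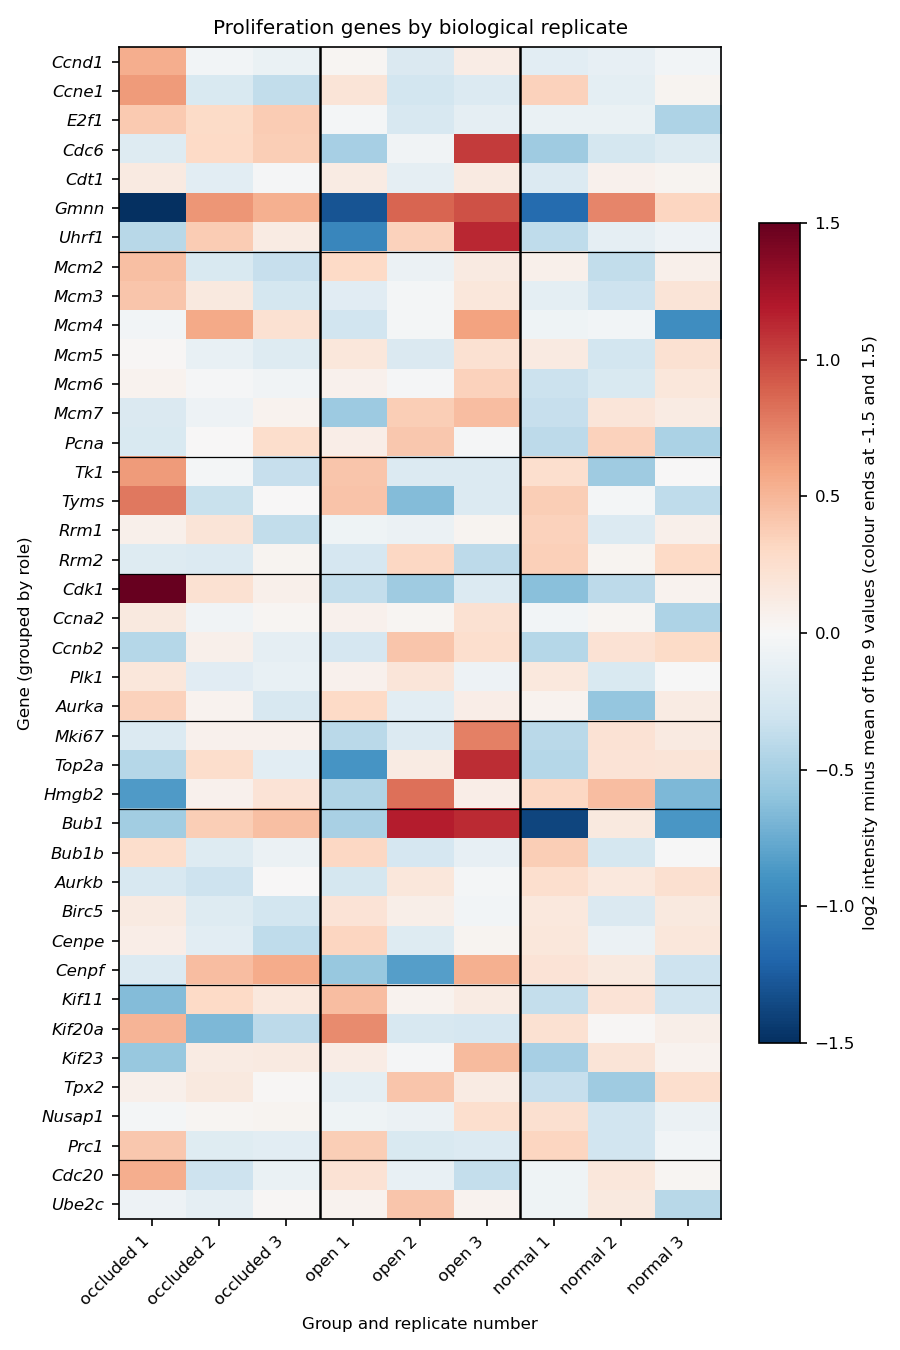
Log2 intensity of each of the 40 proliferation genes minus its mean over the 9 biological replicates (colour), with occluded, open and normal replicates from left to right and genes grouped by role. No block of colour separates the 3 groups; Gmnn, Prc1 and Bub1b differ between replicate 1 and the others in all groups, and Top2a, Uhrf1 and Cdc6 are highest in open replicate 3.

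More of the variation of these genes went with the replicate number than with the group. Of a gene's variation over the 9 values, a median of 12.4% lay between groups (12.5% for all named genes) and 43.1% between numbers (36.9% for all named genes). The share between numbers was the larger one for 29 of the 40 genes, 72.5% against 71.1% of all named genes, so the share was near that of all genes. Gmnn (geminin) had 4.26, 6.54 and 6.41 in occluded, 4.59, 6.76 and 6.84 in open and 4.73, 6.61 and 6.20 in normal mucosa. Prc1 had 12.90, 12.31 and 12.33 in occluded, 12.86, 12.26 and 12.29 in open and 12.81, 12.20 and 12.45 in normal mucosa. Bub1b had 9.40, 8.94 and 9.05 in occluded, 9.45, 8.88 and 9.01 in open and 9.50, 8.87 and 9.13 in normal mucosa. In these 3 genes replicate 1 stood away from 2 and 3 in each group, in opposite directions for Gmnn and the other two. Number 1 was the highest in all groups for 7 of the 40 genes, among them Tyms, Tk1 and Ccne1 (17.5% against 19.6% of all named genes). It was the lowest in all groups for 8, among them Mki67, Top2a and Ccnb2 (20.0% against 15.6%). The normal mice are other individuals, and the labels do not say what the number marks. The median SD between replicates of a group was 0.32 for the 40 genes and between arrays of 1 replicate 0.22, against 0.32 and 0.25 for all named genes.

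Further cell cycle genes gave the same count. Of 130 listed, 120 were measured and 0 passed in any comparison. Between the sides their median difference was -0.0382, with 48 above and 72 below 0, where 48.5% of all named genes lay below. In limma, 2 of the 120 had an unadjusted p under 0.05, against 6.19% of all probes. Among 39 measured genes of DNA replication (median -0.0497), the maintenance methyltransferase gene Dnmt1 had 4.97, 5.61 and 5.60 in occluded, 6.11, 6.18 and 6.66 in open and 5.44, 6.29 and 5.77 in normal mucosa. All occluded values of Dnmt1 lay below all open ones (-0.92 ± 0.22, limma adjusted p = 0.28), and they overlapped those of normal mucosa (-0.44 ± 0.29). Dnmt1 acts with Uhrf1, which differed by 0.57, 0.02 and -1.0 in the 3 pairs. The repair gene Brca1 and the polymerase gene Pold1 both differed by -0.36 (adjusted p = 0.85 and 0.89). Among 44 mitosis genes (median -0.0361) the smallest p-values were those of Incenp (-0.27), Nek2 (0.68, below the noise limit on 13 arrays) and Melk (0.40). Among 18 G1 cyclins, kinases and E2F factors (median -0.0567), Ccnd3 (cyclin D3) lay higher on the occluded side by 0.36 ± 0.16 (limma adjusted p = 0.80). E2f7, a repressor among the E2F factors, differed by 0.37 and E2f5 by -0.50. Among 19 cell cycle inhibitors (median -0.0106), Btg1 and Gadd45b differed by -0.36 and -0.28, and Cdkn2a lay below the noise limit on 26 of 27 arrays.

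Markers of the cell types that divide, or arise from division, were read beside these genes. Globose basal cell and neuronal precursor markers had a median difference of -0.0722 between the sides (10 of 11 measured, 3 above and 7 below 0), with summed intensities of 35871 to 47072 in occluded, 41356 to 48891 in open and 44068 to 48169 in normal mucosa. Lgr5 lay below the noise limit on 15 of 27 arrays. Horizontal basal cell markers had a median of -0.1941, with 11 of 12 below 0 (48.5% of all named genes). Their summed intensities were 21990 to 24225, 25655 to 29813 and 24698 to 27446 in occluded, open and normal mucosa. These sums weigh bright genes such as Krt14 most. The list's median per replicate, each gene taken minus its mean over the 9 values, overlapped between the groups. It was 0.04, -0.03 and -0.09 in occluded, 0.18, -0.04 and 0.32 in open and -0.13, 0.01 and -0.01 in normal mucosa. For occluded against normal the median difference was -0.0541, with 4 above and 8 below 0. Between the sides, Krt14 (-0.38) and Krt17 (-0.36) had an unadjusted p under 0.05 in limma (2 of 12, against 6.19% of all probes), and neither passed. Immature neuron markers had a median of -0.2030, with 11 of 12 below 0 (48.5% of all named genes). Their median per replicate, taken in the same way, was -0.39, 0.02 and -0.05 in occluded mucosa. It was -0.02, 0.11 and 0.14 in open and 0.03, -0.0 and 0.28 in normal mucosa, so the groups overlapped. For occluded against normal the median difference was -0.2665, with 1 above and 11 below 0 (48.0% of all named genes). Mature neuron markers had a median of 0.4009 over 8 measured of 11. Their median per replicate was 0.09, 0.32 and 0.40 in occluded mucosa. It was -0.27, -0.01 and -0.03 in open and -0.15, 0.02 and 0.02 in normal mucosa. For occluded against normal the median difference was 0.3475, with 7 above and 1 below 0. Cnga2, Adcy3, Stoml3 and Gnal had an unadjusted p under 0.05 in limma between the sides (4 of 8, against 6.19% of all probes), and none passed. Of markers of cells outside the epithelium, endothelial and fibroblast genes had a median of -0.2451, with 9 of 10 below 0. Lymphocyte, myeloid precursor and erythroid, bone and cartilage, and respiratory epithelium markers had medians of -0.0345, -0.0083, -0.0430 and -0.0652. Their part in the values of the proliferation genes was not tested.

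**Figure D4:**
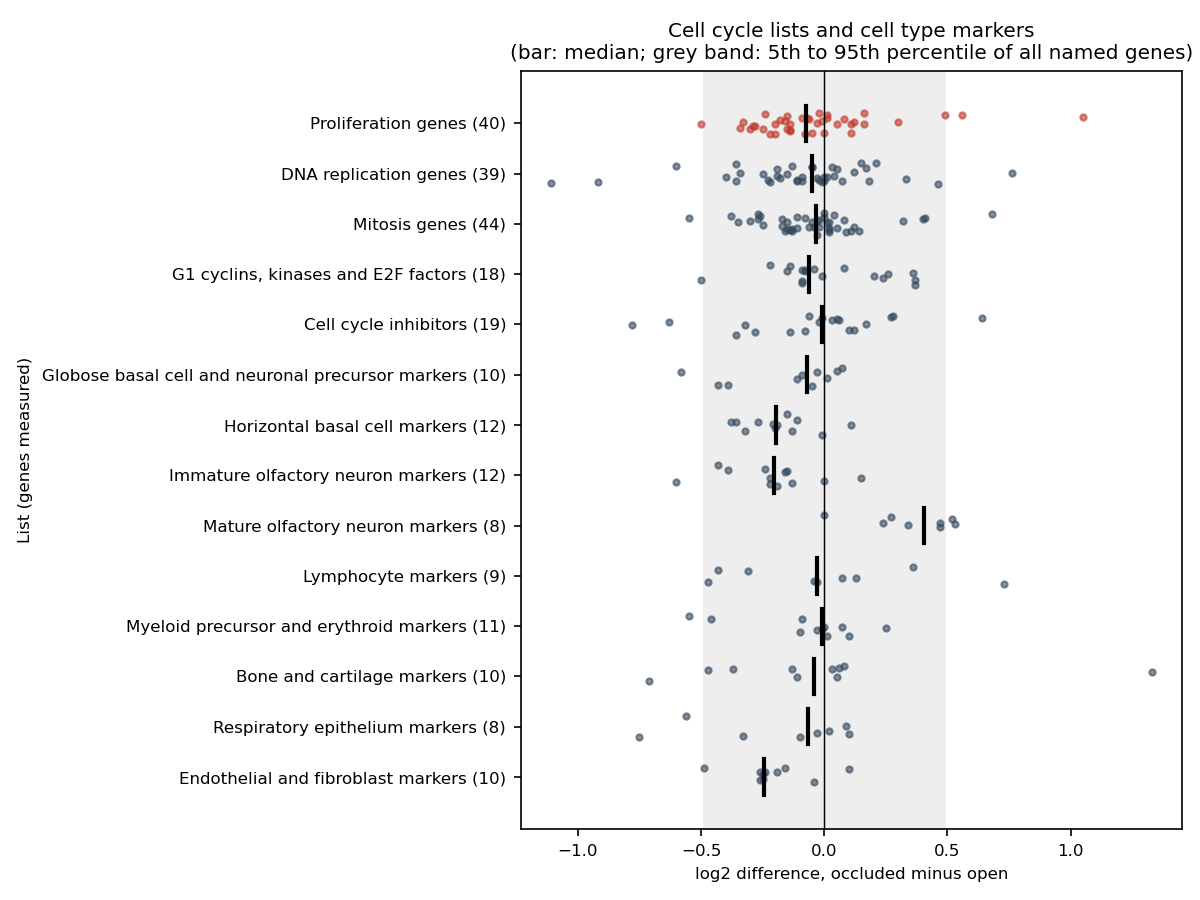
Log2 difference of occluded minus open (x axis) for single genes of each list (points, with the number measured in brackets) and the list's median (bar); the grey band runs from the 5th to the 95th percentile of all named genes, -0.49 to 0.49. The 40 proliferation genes and the further cell cycle lists have medians between -0.0708 and -0.0106, while mature neuron markers have 0.4009.

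The start regions of the genes were searched for the sequence motifs of cell cycle promoters. These motifs are known from promoters of such genes. A share above that of all genes therefore follows from the choice of genes and is a description only. In cycling cells, the CHR element and CCAAT boxes mark promoters of G2/M genes, which the DREAM complex represses in quiescence, and E2F sites mark promoters of G1/S genes. Windows from 250 bases before to 50 bases after an annotated start were found for 33 of the 41 genes in RefSeq (GRCm38.p6). Mcm7, Prc1 and Uhrf1 have more than 1 window (3 of 33 genes, against 15.4% of all genes), and a gene was counted if any window held the motif. Both strands were searched for CHR as TTTGAA or TTTAAA, for CCAAT, and for E2F as TTTGGCGC, TTTCGCGC, TTTCCCGC or TTTGCCGC. A CHR match was found in 22 of the 33 (66.7%, against 30.6% of 27025 genes), CCAAT in 25 (75.8% against 41.1%), at least 2 CCAAT in 16 (48.5% against 13.3%) and E2F in 8 (24.2% against 2.6%). Matches of different motifs overlapped in 1 case (Mcm7), and matches of 1 motif in 4 cases (Mcm5, Mcm6, Uhrf1 and Ube2c). The window of E2f1 held none of the motifs and may lie in coding sequence. Without E2f1 the shares were 68.8% for CHR, 78.1% for CCAAT and 25.0% for E2F, of 32 genes. The 27025 genes are those with a full window, whether or not they are on the array, and were not matched for base content. A match describes letters around an annotated start, which need not be the start used in this tissue. The windows of Cdk1 (chr10:69352863-69353162, minus strand), Mcm6 (chr1:128359656-128359955, minus strand) and Ccnb2 (chr9:70421505-70421804, minus strand) are shown 5′ to 3′ along the gene with matches in capitals. They were chosen as a gene with all motifs, a replication gene with E2F and CCAAT, and a mitotic gene with CHR and CCAAT.

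Cdk1: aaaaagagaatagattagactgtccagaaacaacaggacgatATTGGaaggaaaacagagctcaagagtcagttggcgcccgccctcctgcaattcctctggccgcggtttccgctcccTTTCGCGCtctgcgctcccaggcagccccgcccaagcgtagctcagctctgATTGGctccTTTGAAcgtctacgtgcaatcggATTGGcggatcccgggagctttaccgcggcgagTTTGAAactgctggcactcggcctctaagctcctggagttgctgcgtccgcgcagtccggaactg
Mcm6: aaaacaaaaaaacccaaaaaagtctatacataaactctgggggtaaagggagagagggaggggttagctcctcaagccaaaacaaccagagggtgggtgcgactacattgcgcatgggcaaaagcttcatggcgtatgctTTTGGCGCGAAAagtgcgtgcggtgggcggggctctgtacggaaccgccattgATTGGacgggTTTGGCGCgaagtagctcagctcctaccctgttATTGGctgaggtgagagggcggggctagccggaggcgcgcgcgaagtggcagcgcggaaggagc
Ccnb2: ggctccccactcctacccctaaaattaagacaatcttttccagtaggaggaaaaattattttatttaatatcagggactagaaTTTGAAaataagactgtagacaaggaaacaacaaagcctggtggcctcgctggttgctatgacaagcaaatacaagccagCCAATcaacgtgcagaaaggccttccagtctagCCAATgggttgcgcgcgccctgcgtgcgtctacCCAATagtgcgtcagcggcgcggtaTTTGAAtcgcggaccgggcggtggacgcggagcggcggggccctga

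Cdk1 has 2 CHR, 3 CCAAT and 1 E2F match, Mcm6 has 2 CCAAT and 3 E2F matches and Ccnb2 has 2 CHR and 3 CCAAT matches. In Mcm6, 2 of the E2F matches overlap within 1 stretch and are read on opposite strands. Between the sides these genes differed by 1.05, -0.14 and -0.30, and none passed. The 25 genes with a CCAAT match had a median difference of -0.14 (18 below 0), and the 19 with both CHR and CCAAT -0.14 (14 below 0). The 22 genes with a CHR match had a median difference of -0.12 (15 below 0), and the 8 with an E2F match -0.10 (5 below 0), beside -0.0708 for all 40 genes (27 below 0).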

How the data were processed

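Total RNA was amplified by in vitro transcription and labelled with Cy5, 1 sample per array, per the labels' protocols. The authors deposited linear probe intensity values of 29922 probes on 27 arrays. How the arrays were scanned, corrected for background and scaled is not stated in the labels. Background had been subtracted, judging by the values: 1.45% to 3.93% of an array's values lay at or below 0. These were set to the lowest positive value (0.912) before log2. Quantile normalization followed, and then averaging over the 3 arrays of a replicate. limma 3.58.1 with statmod 1.5.0 in R 4.3.3 fitted the 3 groups, with individuals as random blocks (estimated correlation 0.389), two-sided, with Benjamini-Hochberg adjustment over all probes and a threshold of 0.05. The design text states that both sides come from the same individuals; that equal numbers mark 1 individual is a reading of the titles. Deviations from group means correlated at 0.5161, -0.0044 and 0.1417 in the 3 pairs, and at -0.4264 to 0.3864 between occluded and open replicates of unequal number. Normal replicate 1, from other mice, correlated at 0.3528 with occluded and 0.394 with open replicate 1. The values therefore leave the pairing by number unsettled. The noise limit is 3 times the root mean square of an array's values below 0. Saturated probes lie at or above 99.5% of an array's highest value. Of the probes, 21020 have 1 gene symbol and 8902 none; symbols were updated through a RefSeq gene table (GRCm38.p6). The fit was run on simulated data as a check of the code. How small a change it can find with these samples is not reported here. The p-values weigh a difference against the spread between these samples, which limma moderates over all probes. Through the block they also rest on the pairing by number. The small number of samples limits the precision.

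The members and all gene lists were chosen with earlier results of these data known. Genes given with every replicate's value are Mki67, Top2a, Pcna, Mcm2, Cdk1, Ccna2 and Ccnd1, any member past the threshold and, in each role, the 2 with the smallest p between the sides. Of each further list, the 3 genes with the smallest p could be named. Gmnn, Prc1, Bub1b, Bub1, Aurkb, Mcm4, Ptprc, Cd79a, Cd79b, Cd3e, Ltf, Mpo, Neurog1, Gnal, Col2a1 and the genes of single pairs were named after seeing their values. The alternatives changed the block, normalization, an offset of 50, dim probes (the dimmest 30%), the averaging of arrays and probes, the groups in the fit, an intensity trend and each replicate left out.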

Additional observations from a re-analysis of the deposited data

How the results depend on the processing

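The count of 0 proliferation genes called by limma held in all alternatives run, 14 for occluded against open and 16 each for the comparisons with normal mucosa. For open against normal, 0 of all probes were called in each of 15 alternatives, and for occluded against normal 0 to 19. Where no probe passed, a count of 0 genes was fixed in advance, so those runs cannot show that it is stable. With an unadjusted p under 0.05 the main counts were 2, 1 and 1. For the 20 genes given with all replicates, 914 alternative values held 0 calls and 68 changes of sign. The median difference between the sides ranged from -0.136 (without replicate 1) to 0.003 (without replicate 3) when a replicate was left out. For occluded against normal it was 0.102 without normalization, and 0.036 to 0.093 with a replicate left out, the highest without occluded replicate 3. For open against normal it was 0.187 without normalization. The cause was not tested.

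The count of 66 probes between the sides was 0 where a fixed replicate block stood for the pair, 2 with the number as a fixed replicate block, 3 with no replicate block, 0 without normalization, 37 with array medians centred, 14 with the 2 groups compared alone and 0 to 35 with a replicate left out (0 without replicate 1, 35 without replicate 2, 6 without replicate 3). It was 61 with the median of the 3 arrays, 87 without the dimmest 30% of probes, 89 with an offset of 50 and 93 with an intensity trend. The count of 2 for occluded against normal was 0 with the number as a fixed replicate block, 0 without normalization, 18 with an offset of 50, 13 without the dimmest 30% of probes, 5 with the median of the 3 arrays, 0 with the 2 groups alone, 19 with an intensity trend and 0 to 1 with a replicate left out. Bub1, Cenpf, Cdk1 and Gmnn are limited by signal near the noise limit.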
